A study of Mus musculus with 10 samples.

Results

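The MAP3 kinases (MAP3Ks, mitogen-activated protein kinase kinase kinases) were examined in spleens of DUSP6 KO and WT mice with KRN serum-induced arthritis (KSIA). The 10 genes described are Map3k19 and 9 relatives (Map3k1, Map3k2, Map3k3, Map3k4, Map3k5, Map3k7, Map3k8, Map3k11 and Map3k14), of 54532 genes in the deposited table. They were taken by name. Map3k19 was selected on its FPKM values in this same comparison, in which it was low in DUSP6 KO, so its values are a description and no test is given for it. The other 9 serve the question of whether its low expression was shared within the family. All 10 passed the expression filter (a mean of at least 0.1 FPKM over the 10 libraries). Map3k19 passed it only through the WT libraries.

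RNA was sequenced from 1 spleen each of 5 DUSP6 KO mice (allele Dusp6tm1Jmol, a targeted allele, called a knockdown in the sample labels) and of 5 WT mice (C57BL/6J). The mice were young adults per the study's methods. These methods list both groups as purchased strains, state no background strain for DUSP6 KO and mention no littermate controls. Effects of the deletion and of strain source therefore cannot be told apart. The experiment used males and females, and the labels do not give the sex of each spleen's donor. Both groups received 100 µL of arthritogenic serum from KRN x NOD offspring intraperitoneally on days 0 and 2, and spleens were taken at day 9. The unit is FPKM, fragments per kilobase of gene length divided by a library scale set by the authors, which allows levels of different genes to be compared. That scale was near the library's total of assigned reads but not equal to it. Reads assigned to genes, as recovered from the FPKM values, numbered 14990474 to 19822673 per library in DUSP6 KO and 15611652 to 18422147 in WT.

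MAP3 kinases stand at the head of the 3-tier MAP kinase cascades. They phosphorylate MAP2 kinases, which in turn activate ERK, JNK or p38, and several of them also feed the NF-κB pathway. In spleen they relay signals of Toll-like, cytokine and antigen receptors. DUSP6 acts at the far end of one of these cascades, where it removes the activating phosphates of ERK. In whole spleen RNA, fewer cells of a type and less RNA per cell cannot be told apart.

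Markers listed for spleen cell types were present in every library, with 4 B cell markers (Cd79a, Cd79b, Ms4a1 and Pax5) summing to 518 to 991 FPKM in DUSP6 KO and 575 to 1299 FPKM in WT. Differences in composition touch the values below. The 5 exocrine pancreas markers (Cpa1, Cela2a, Pnlip, Cel and Ctrb1) summed to 11223 FPKM in WT replicate 67 and 133 FPKM in WT replicate 65, against at most 0.193 FPKM in the 8 other libraries. The 5 neutrophil markers (S100a8, S100a9, Ltf, Camp and Ngp) summed to 517 to 1818 FPKM in DUSP6 KO and 1020 to 4654 FPKM in WT, highest in WT replicate 77. All 5 had an unadjusted limma p under 0.05 and 0 passed after adjustment. Of all genes tested, 5.66% had such a p (3.03% lower in DUSP6 KO) and 0.0704% passed after adjustment. The 5 are markers of the same cell type, so they are not independent observations. The targeted gene, Dusp6, ranged from 16.6 to 24.0 FPKM in WT and from 0.308 to 0.624 FPKM in DUSP6 KO, in the direction of the labels.

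Map3k19 (ENSMUSG00000051590, also known as YSK4, a MAP3K of the STE group) lies on the minus strand of chromosome 1 of GRCm38, from 127815253 to 127855031. DUSP6 KO replicates 26, 21, 73, 01 and 03 had 0.0439, 0.0843, 0.140, 0.0378 and 0.0617 FPKM. WT replicates 65, 67, 73, 77 and 83 had 1.57, 2.16, 1.34, 1.01 and 1.75 FPKM. Every DUSP6 KO spleen was below every WT spleen, as for 0.563% of all genes tested. The levels of Map3k19 correspond to 4 to 10 reads per library in DUSP6 KO (31 in all) and 82 to 201 reads per library in WT (680 in all).

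Map3k19 averaged 1.57 ± 0.43 FPKM in the WT spleens and 0.0735 ± 0.0412 FPKM in the DUSP6 KO spleens (SD, n = 5 per group). The WT mean was thus 21.3-fold higher, and the DUSP6 KO mean was 4.70% of it. The lowest WT library was 7.23-fold above the highest DUSP6 KO library. Leaving out single libraries, the ratio of means lay between 18.99 and 27.5, the highest value being that without DUSP6 KO replicate 73. Without WT replicates 65 and 67, the libraries with pancreas transcripts, the WT mean was 18.6-fold higher. On the log2(FPKM + 0.1) scale the difference (DUSP6 KO minus WT) was −3.25. This scale compresses low values, and the difference was −4.32 with a pseudocount of 0.01 and −1.24 with a pseudocount of 1.

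Within WT the level of Map3k19 varied with a coefficient of variation of 27.5%. Its order over the 5 WT libraries (replicates 67, 83, 65, 73 and 77, from high to low) was that of the summed B cell markers, at 1299, 991, 971, 907 and 575 FPKM. The T cell markers (Cd3e, Cd3d, Cd4, Cd8a and Trac) had the same order, with sums of 149, 145, 135, 131 and 108 FPKM. The red pulp macrophage sum (Spic, Vcam1, Adgre1, Hmox1 and Slc40a1) had it except for WT replicates 73 and 77. These were at 554 and 588 FPKM. The neutrophil sum was lowest in WT replicate 67 (1020 FPKM) and highest in WT replicate 77 (4654 FPKM). Within WT the same held for the erythroid sum, at 1796 and 5899 FPKM. The order of Map3k19 is thus not particular to B cells. In DUSP6 KO the highest library for Map3k19, replicate 73, was the one with the lowest B cell and T cell sums, at 518 and 84.0 FPKM. That rank rests on 10 reads, against 4 to 8 in the other DUSP6 KO libraries. The part of cell composition in the level of Map3k19 was not tested.

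Map3k19 was a low-expressed gene in WT spleens, with a mean above that of 43.2% of the 21296 genes tested. In DUSP6 KO its mean was above that of 2.43% of them. Map3k19 made up 0.999% to 1.59% of the summed FPKM of the 10 MAP3K genes in the WT libraries. In the DUSP6 KO libraries that share was 0.0347% to 0.147%. The sum of the other 9 genes averaged 115 FPKM in WT (range 100.1 to 133 FPKM) and 110.3 FPKM in DUSP6 KO (range 95.3 to 127.5 FPKM), and the groups overlapped in it.

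**Figure D1:**
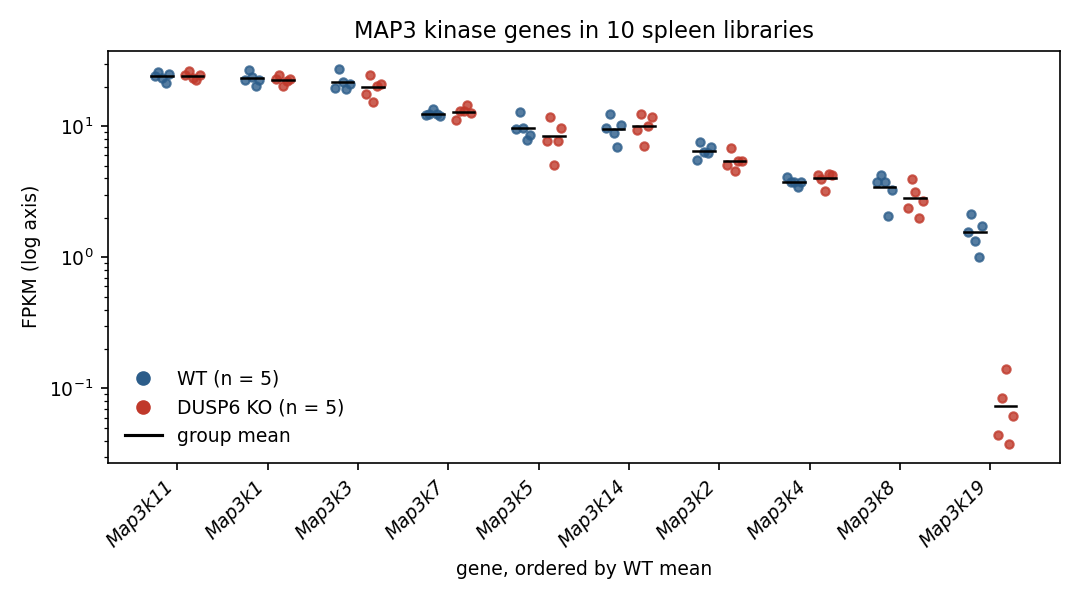
FPKM of the 10 MAP3K genes on a log axis, with 1 point per library (blue, 5 WT; red, 5 DUSP6 KO) and a black bar at each group mean. The points of both groups overlap for 9 genes, while for Map3k19 the DUSP6 KO points lie between 0.0378 and 0.140 FPKM and the WT points between 1.01 and 2.16 FPKM.

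The other 9 genes were compared with limma on log2(FPKM + 0.1), in a fit across all 21296 genes tested. After Benjamini-Hochberg adjustment 0 of the 9 passed an adjusted p of 0.05, where 0.0704% of all genes did (0.0376% higher and 0.0329% lower in DUSP6 KO). Before adjustment 0 of the 9 had p under 0.05, where 5.66% of all genes did (2.62% higher and 3.03% lower). With limma voom on recovered reads 0 passed after adjustment and 1, Map3k2, had an unadjusted p under 0.05. The 9 log2 differences ranged from −0.26 to 0.07 with a median of −0.05, and the median over all genes tested was −0.00. Of these, 5 were negative and 4 positive, and 51% of all genes were negative. The 95% intervals of the 9 differences lay between −0.75 and 0.46, so that the largest decrease they allow is 1.68-fold (Map3k8) and the largest increase 1.37-fold (Map3k14). None of the 9 intervals reached the difference of −3.25 seen for Map3k19. Since Map3k19 was selected for its low values in this comparison, that gap was likely in advance and is a description. A p that misses the threshold does not show that the groups were equal, and the intervals give the sizes that remain possible.

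**Figure D2:**
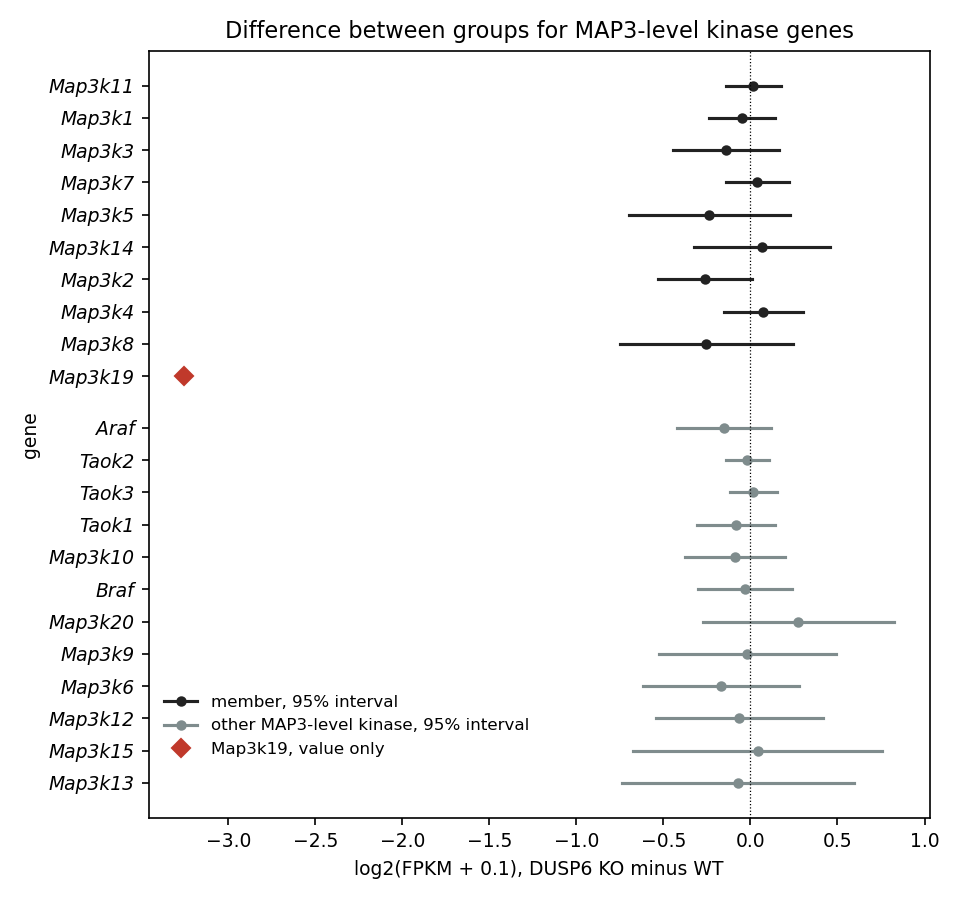
Difference between DUSP6 KO and WT on the log2(FPKM + 0.1) scale for the 10 MAP3K genes (top) and other kinases of the same tier (grey, below), as points with 95% intervals from limma. Every interval shown spans 0, and Map3k19, drawn without an interval, stands at −3.25.

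The 2 most negative differences among the 9 genes were those of Map3k2 and Map3k8. Map3k2 encodes MEKK2, a kinase upstream of MEK5 and ERK5. DUSP6 KO replicates 26, 21, 73, 01 and 03 had 5.06, 6.78, 4.55, 5.46 and 5.42 FPKM, and WT replicates 65, 67, 73, 77 and 83 had 5.52, 7.62, 6.32, 6.27 and 6.95 FPKM. Of the 5 DUSP6 KO spleens, 4 lay below all WT spleens, and replicate 21 lay within the WT range. The log2 difference was −0.26 (standard error 0.12, limma adjusted p = 0.91, unadjusted p = 0.057; two-sided exact permutation test, p = 0.063). The unadjusted limma p was under 0.05 in 4 of the 19 alternatives, and lowest without DUSP6 KO replicate 21 (unadjusted p = 0.011, adjusted p = 0.54, against adjusted values of up to 1.0 over the others).

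Map3k8 encodes TPL2, which activates MEK and ERK downstream of Toll-like receptors in myeloid cells. DUSP6 KO replicates 26, 21, 73, 01 and 03 had 2.38, 3.997, 3.18, 1.99 and 2.69 FPKM, and WT replicates 65, 67, 73, 77 and 83 had 3.74, 4.26, 3.77, 2.06 and 3.25 FPKM. The groups overlapped over most of their range, and the lowest WT value was that of replicate 77, the library with the highest neutrophil marker sum. The log2 difference was −0.25 (standard error 0.23, limma adjusted p = 0.98). Over the 19 alternatives it lay between −0.42, without WT replicate 77 (limma unadjusted p = 0.054, adjusted p = 0.82), and −0.08, without WT replicates 65 and 67.

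Map3k5 encodes ASK1, a kinase of the oxidative stress response that acts on p38 and JNK. It was the most variable of the 9 in DUSP6 KO, with a coefficient of variation of 29.6%. It ranged from 7.84 to 12.8 FPKM in WT (median 9.55) and from 5.10 to 11.7 FPKM in DUSP6 KO (median 7.73). Its log2 difference of −0.24 (standard error 0.21, limma adjusted p = 0.98) lay between −0.37, without DUSP6 KO replicate 21 (limma unadjusted p = 0.087, adjusted p = 0.74), and −0.07, without DUSP6 KO replicate 73, over the 19 alternatives.

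Map3k14 encodes NIK, the kinase that starts the noncanonical NF-κB pathway downstream of BAFF and lymphotoxin receptors. It averaged 9.62 ± 1.96 FPKM in WT and 10.1 ± 2.1 FPKM in DUSP6 KO (SD, n = 5 per group), with a log2 difference of 0.07 (standard error 0.18, limma adjusted p = 0.99). Over the 19 alternatives the difference lay between −0.04, without WT replicate 77, and 0.21, without WT replicates 65 and 67. Its lowest values were those of DUSP6 KO replicate 73, at 7.06 FPKM, and WT replicate 77, at 6.96 FPKM. Map3k14 shares 135 identical bases with the transcript 1700028N14Rik, which overlaps it on the same strand and was at a mean of 0.193 FPKM, so a small part of its reads is uncertain.

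The 3 most highly expressed genes of the family were Map3k11, Map3k1 and Map3k3. Map3k11 encodes MLK3, a JNK pathway kinase that binds Rac and Cdc42. It averaged 24.1 ± 1.7 FPKM in WT and 24.3 ± 1.5 FPKM in DUSP6 KO (SD, n = 5 per group), with a 95% interval of the log2 difference of −0.14 to 0.18. Map3k1 encodes MEKK1, a JNK pathway kinase that also carries a ubiquitin ligase domain. It averaged 23.3 ± 2.5 FPKM in WT and 22.5 ± 1.6 FPKM in DUSP6 KO (SD, n = 5 per group), with an interval of −0.24 to 0.14. Map3k3 encodes MEKK3, which acts with the adaptor CCM2 in endothelium, and its interval of −0.44 to 0.16 was the widest of the 3.

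Map3k7 encodes TAK1, the kinase that links Toll-like, IL1 and TNF receptors to IKK and to the MAP kinases. It ranged from 11.997 to 13.5 FPKM in WT and from 11.1 to 14.6 FPKM in DUSP6 KO, with a 95% interval of the log2 difference of −0.14 to 0.22. Map3k4 encodes MEKK4, a p38 pathway kinase activated by GADD45 proteins. It ranged from 3.47 to 4.11 FPKM in WT and from 3.23 to 4.32 FPKM in DUSP6 KO, with an interval of −0.15 to 0.30. These were the least variable of the 10 genes in WT, with coefficients of variation of 4.73% and 5.92%. A stretch of 529 bases of Map3k7 matches the transcript Gm8188 with 97.0% identity, and 333 bases of Map3k4 match Gm11235 with 98.5%. For Map3k11, 160 bases match AC134563.1 with 98.75%, so a part of the reads of these 3 genes could be shared. Map3k3 is overlapped on the other strand by Gm11672 (mean 0.402 FPKM) and Map3k7 by Gm26254 (mean 2.41 FPKM), whose reads cannot be told apart if counting ignored strand. No match of at least 95% identity in another gene was found for Map3k19.

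From high to low, the WT means were ordered Map3k11, Map3k1, Map3k3, Map3k7, Map3k5, Map3k14, Map3k2, Map3k4, Map3k8 and Map3k19. The ranges of neighbours in this order overlapped for 7 of the 9 neighbouring pairs, and were separate between Map3k3 and Map3k7 and between Map3k2 and Map3k4. Map3k8 and Map3k19 overlapped in range, yet Map3k8 was the higher of the pair in each of the 5 WT libraries. The order in DUSP6 KO differed only in that Map3k14 (10.1 FPKM) stood before Map3k5 (8.40 FPKM). There Map3k8 and Map3k19 were separate.

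Single libraries held many of the extreme values of the 9 genes. WT replicate 67 held the highest value of 6 of the 9 genes, and DUSP6 KO replicate 73 the lowest value of 5. WT replicate 67 was the library with the most pancreas transcript and the highest B cell sum. DUSP6 KO replicate 73 had the lowest B cell sum, the lowest T cell sum (84.0 FPKM, against 108 to 168 FPKM in the other libraries) and the highest erythroid sum (11983 FPKM, against at most 6104 FPKM in the others). The part of these differences in composition in the MAP3K values was not tested.

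**Figure D3:**
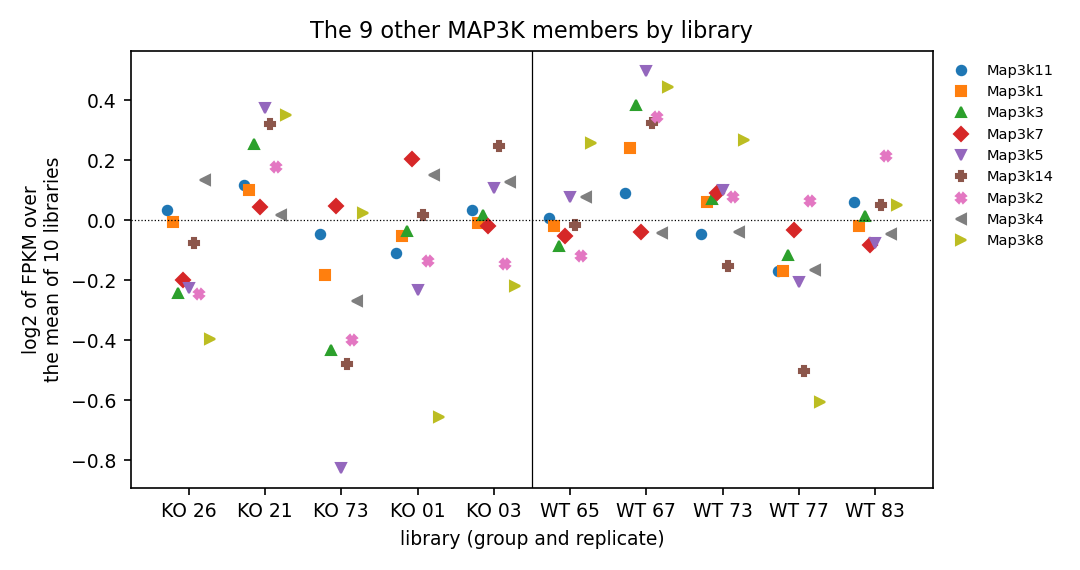
Level of the 9 MAP3K genes other than Map3k19 in each library (x axis, DUSP6 KO left and WT right), as the log2 of FPKM over the gene's mean of the 10 libraries. DUSP6 KO replicate 73 holds the lowest value of 5 genes and WT replicate 67 the highest of 6, and the groups overlap for every gene.

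Beyond these 10 genes, 15 other kinases of the same tier were listed, among them 8 further genes named Map3k, the RAF kinases Araf and Braf, and Taok1, Taok2 and Taok3. Of these, 13 passed the expression filter, Mos had no read in any library, and Map3k21 was at most 0.0212 FPKM. In limma 0 of the 13 passed after adjustment, where 0.0704% of all genes tested did. An unadjusted p under 0.05 was found for 0, where 5.66% of all genes tested had one. For a list this short, counts of 0 are near these shares. In voom 0 of the 13 passed after adjustment. Their log2 differences ranged from −0.17 (Map3k6, a relative of Map3k5) to 0.28 (Map3k20, the ribosome stress kinase ZAK), with a median of −0.03. Araf had the smallest p of the 13, with a log2 difference of −0.15 (limma adjusted p = 0.98). Map3k9, Map3k6, Map3k15, Map3k12 and Map3k13, whose WT means of 0.154 to 1.48 FPKM were below that of Map3k19, had log2 differences between −0.17 and 0.04. Their 95% intervals were wide and lay between −0.74 and 0.75, on a scale that compresses low values.

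Of all genes tested, 0.0704% passed after adjustment in limma. Of 17 genes listed as partners of MAP3 kinases, all were tested and 0 passed, with a median log2 difference of −0.08. They encode proteins that bind, activate or restrain MAP3 kinases, except Map3k7cl, which was listed only as a relative by name. Before adjustment 1 of the 17 had p under 0.05, where 5.66% of all genes tested did. It was Map3k7cl, which shares the C-terminal region of TAK1 without its kinase domain. DUSP6 KO replicates 26, 21, 73, 01 and 03 had 0.746, 0.778, 0.248, 0.643 and 0.693 FPKM, and WT replicates 65, 67, 73, 77 and 83 had 0.779, 1.81, 0.948, 1.06 and 1.05 FPKM. The groups did not overlap, as for 1.11% of all genes tested (0.563% lower and 0.549% higher in DUSP6 KO), but the highest DUSP6 KO and the lowest WT value were 0.778 and 0.779 FPKM. The log2 difference was −0.79 (standard error 0.30, limma adjusted p = 0.79; exact permutation p = 0.0079, two-sided, which is the smallest value that 5 against 5 allow). Map3k7cl and Map3k7 are separate genes, and Map3k7 itself had a log2 difference of 0.04. Gadd45g, an activator of MEKK4, came next by p, with a log2 difference of −0.18 (limma adjusted p = 0.95).

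In limma 0.0704% of all genes tested passed after adjustment and 5.66% had an unadjusted p under 0.05. For lists of 7 and 9 genes, counts of 0 are near these shares. Upstream, 0 of 7 MAP4 kinases passed in limma, and 0 had an unadjusted p under 0.05, with a median log2 difference of 0.05. Map4k1 and Map4k2, kinases of lymphocytes and of germinal centres, had differences of −0.18 each. Downstream, 0 of 9 MAP3K substrates (7 MAP2 kinases, Chuk and Ikbkb) passed, and 0 had an unadjusted p under 0.05, with a median of −0.02. Chuk, the IKKα subunit on which NIK acts, had the smallest p of these, with a log2 difference of −0.11 (limma adjusted p = 0.94). Map2k6, a p38 kinase kinase, had one of 0.19 (limma adjusted p = 0.95).

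Of 10 MAP kinases, 9 were tested and 0 passed after adjustment in limma, where 0.0704% of all genes tested did. An unadjusted p under 0.05 was found for 2, both p38 isoforms with lower means in DUSP6 KO, where 5.66% of all genes tested had one. Mapk13 (p38δ) averaged 1.19 ± 0.59 FPKM in WT and 0.640 ± 0.103 FPKM in DUSP6 KO (SD, n = 5 per group), with a log2 difference of −0.71 (limma adjusted p = 0.79). Its highest value, 2.14 FPKM, was that of WT replicate 77, the library with the highest neutrophil marker sum. Mapk12 (p38γ) had a log2 difference of −0.52 (limma adjusted p = 0.88). Of the other p38 genes, Mapk14 (p38α), with the highest mean of the p38 genes at 40.9 FPKM in WT, had a difference of 0.04 (limma adjusted p = 0.99), and Mapk11 (p38β) had one of −0.47 (limma adjusted p = 0.92). Mapk8, the JNK1 gene, had a difference of −0.01.

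The surroundings of Map3k19 on chromosome 1 were then examined, since position had no part in choosing it. The table holds 40 other genes within 1 Mb of either end, none of which overlaps Map3k19, and 20 passed the expression filter. In limma 0 of the 20 passed after adjustment, where 0.0704% of all genes tested did. An unadjusted p under 0.05 was found for 1, Dars, an aminoacyl-tRNA synthetase gene 509 kb away that was named after its values were seen, which is 1 of 20 where 5.66% of all genes tested had such a p. Dars averaged 21.8 ± 1.6 FPKM in WT and 17.4 ± 2.3 FPKM in DUSP6 KO (SD, n = 5 per group) without overlap, as for 1.11% of all genes tested, with a log2 difference of −0.33 (limma adjusted p = 0.58). The median over the 20 genes was −0.13, with 16 negative, where 51% of all genes tested were negative. Among the 16 are genes near the floor. Gm23734 had 4 reads in WT replicate 67 and 0 in every other library, and Gm29383 had 0 to 6 reads per library. Neighbouring genes may not vary independently, and the count of 16 was not tested.

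The nearest neighbour on each side was expressed above Map3k19 in both groups. Ccnt2, the cyclin T2 gene 7.19 kb away, averaged 7.002 ± 0.388 FPKM in WT and 6.44 ± 0.59 FPKM in DUSP6 KO (SD, n = 5 per group), with a log2 difference of −0.12 (95% interval −0.31 to 0.07). Rab3gap1, a subunit of the Rab3 GTPase-activating complex 13.7 kb away on the other side, averaged 6.22 ± 0.48 FPKM in WT and 5.67 ± 0.41 FPKM in DUSP6 KO (SD, n = 5 per group), with a difference of −0.13 (95% interval −0.32 to 0.06). Acmsd at 47.3 kb, Zranb3 at 99.2 kb, the antisense gene Gm28800 at 104 kb and Tmem163 at 136 kb had log2 differences of 0.29, 0.27, −0.52 and −0.25, and the groups overlapped for each. Zranb3 and Gm28800 had WT means of 1.28 and 0.171 FPKM, below that of Map3k19.

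**Figure D4:**
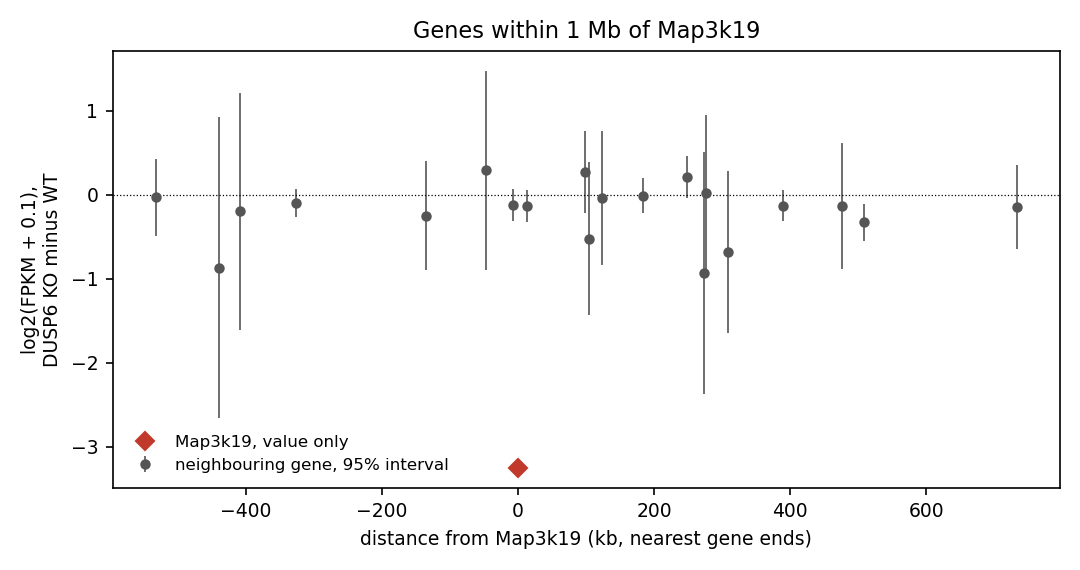
Difference between DUSP6 KO and WT on the log2(FPKM + 0.1) scale for the 20 tested genes within 1 Mb of Map3k19, against their distance in kb, with 95% intervals from limma. Map3k19, drawn at 0 kb without an interval, stands at −3.25, and the interval of Dars, 509 kb away, is the one that does not span 0.

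Among all genes tested, 120 (0.563%) had every DUSP6 KO value below every WT value. Ranked by the gap between the lowest WT and the highest DUSP6 KO value on the log2(FPKM + 0.1) scale, Map3k19 had rank 4 with a gap of 2.21. Before it stood Dusp6 itself with 4.53, the antisense gene Gm15915 with 3.55 and the small nuclear RNA gene Gm26393 with 2.46. After it came the processed pseudogene Gm14843 with 1.80 and the DNA repair gene Tdg with 1.68. Of these, Gm26393 and Gm14843 had 0 reads in every DUSP6 KO library and 1 to 7 and 1 to 3 reads in WT, so no fold is given for them. Dusp6, Gm15915 and Tdg lie on chromosome 10, Gm26393 on chromosome 11 and Gm14843 on chromosome X. The likeness is one of group separation over 10 libraries and has no test.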

How the data were processed

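Spleen RNA of 5 DUSP6 KO and 5 WT mice was sequenced by a service provider. The authors cleaned paired-end reads, used Hisat2 for alignment and featureCounts 1.5.0-p3 for counting, and deposited FPKM values. The submitters' processing notes name hg38, a human build, but 54495 of the 54532 gene IDs are in mouse GENCODE release 21 (GRCm38) and 98.2% have identical coordinates there. The library kit's strandedness and the strand used in counting are not given in the sources used here.

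In each library FPKM times the deposited gene length was a whole multiple of 1 step for 100% of values (within 0.001 of their size), which gave the reads. The authors' library scale was 0.949 to 1.12 times the summed reads, a factor not given in the sources used here. Replicates carry the animal numbers of the labels, and no pair differed as little as sampling noise (chi-square per gene 10.5 to 109). The labels call the spleens of a group different ones.

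Groups were compared on log2(FPKM + 0.1) by the moderated test of limma 3.58.1 (R 4.3.3, trended prior variance). The 21296 genes whose mean reached 0.1 FPKM were fitted together and their p-values adjusted by Benjamini-Hochberg. The script was tested on simulated data. The DESeq2 test of the study was not repeated. For single genes a two-sided exact permutation test was added. Transcripts were compared with blastn 2.17.0. Alternative settings used pseudocounts of 1 and 0.01, a filter at 1 FPKM, no filter, no trend, median centring, quantile normalization, limma voom on the recovered reads, each library left out, and, chosen after seeing the data, WT replicates 65 and 67 left out together.

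The genes named are the 10 members, Dusp6, the other MAP3-level kinases by value or count, the 2 genes with the smallest p in each other list, the 3 nearest tested neighbours on each side and the 5 genes most like Map3k19. Dars, Mapk8, Mapk11 and Mapk14 were added after their values were seen. Values of some single genes of the lists are not reported here. The members and lists were chosen with earlier results of these data known. The RefSeq promoter table used here has no entry for Map3k19, and no sequence is printed.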

Additional observations from a re-analysis of the deposited data

Results flagged for a closer look

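Of 82 groups of 5 values (up to 2 for each of 42 genes), 3 had a value far from the other 4 by Dixon's test (critical value 0.71), where chance flags about 1 in 20 groups. Map3k7 was at 13.5 FPKM in WT replicate 73, above 11.997 to 12.4 FPKM in the other WT libraries. Map3k7cl was at 0.248 FPKM in DUSP6 KO replicate 73, below 0.643 to 0.778 FPKM in the other DUSP6 KO libraries. Map3k7cl was also at 1.81 FPKM in WT replicate 67, above 0.779 to 1.06 FPKM in the other WT libraries.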

How the results depend on the processing

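The count of called genes was 0 under all 19 alternatives for the 9 MAP3K genes other than Map3k19, the other kinases of that tier, the partners, the MAP4 kinases, the substrates, the MAP kinases and the genes within 1 Mb of Map3k19. In the main test 0.0704% of all genes were called. A count of 0 was therefore likely for lists this short, and its repetition says little about them. The count of the 9 genes with an unadjusted limma p under 0.05 was 0 in the main test and 1, Map3k2, with median centring, with voom, without DUSP6 KO replicate 21 and without WT replicate 65, ranging from 0 to 1 over the libraries left out. The difference of Map3k19 moved from −3.25 to −1.24 with a pseudocount of 1, to −4.32 with one of 0.01 and to −4.46 with voom, and lay between −3.39 and −3.13 with 1 library left out and at −3.08 without WT replicates 65 and 67. With a minimum mean of 1 FPKM it was not tested, since its mean over the libraries was 0.819 FPKM. Over all genes, 8 were called higher and 7 lower. With 1 library left out the counts ranged from 6 to 21 higher and from 4 to 13 lower (21 and 13 without DUSP6 KO replicate 21; 4 lower without WT replicate 83), and the lower genes without overlap between groups from 4 to 13. With a minimum mean of 1 FPKM, 4 were called lower, all 4 without overlap, where 13422 genes were tested. Of the single genes most like Map3k19, Gm26393 and Gm14843 lost their call in 12 gene and setting pairs, among them both with voom. Small differences changed sign for Map3k1, Map3k7, Map3k11 and Map3k14 in 1 or 2 of the 19 alternatives each and kept their sign in all for the other 5 genes. Scaling alternatives moved the median of all genes by less than 0.1. No paired analysis was possible because the groups share only 1 replicate number (73). The 4 to 10 reads per DUSP6 KO library limit how precisely the remaining level of Map3k19 is known.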

Other observations

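Map3k5 lies on chromosome 10, the chromosome of Dusp6, 79.1 Mb from it and 300 kb from Il22ra2, which encodes a soluble antagonist of IL22. Il22ra2 averaged 2.11 ± 0.79 FPKM in WT and 10.7 ± 2.6 FPKM in DUSP6 KO (SD, n = 5 per group), a log2 difference of 2.33 (limma adjusted p = 0.0090). The log2 difference of Map3k5 beside it was −0.24, with a 95% interval of −0.70 to 0.22. Both genes were set side by side after their values were seen.

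Of the airway and ciliated cell markers, which were listed because Map3k19 is known from airway epithelium, Scgb1a1 and Dnah5 had means below the expression filter, with maxima of 0.369 and 0.00769 FPKM, and Foxj1 was at most 0.557 FPKM. The 5 markers summed to 7.58 to 11.3 FPKM in DUSP6 KO and 8.04 to 13.2 FPKM in WT, and most of this was Cfap43 and Tppp3.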
